A study of Mus musculus with 18 samples.

Results

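The genes described here are 7 genes known as markers of the mesothelium and of the epithelium that lines the coelom: Bnc1, Wt1, Tcf21, Upk3b, Upk1b, Lrrn4 and Msln. The words lining genes are used below as a name for this set, although Tcf21 is also a factor of mesenchyme. They were taken by symbol from a table of 53465 gene identifiers, and all 7 were found. They were chosen from measured values of these libraries, after the DKO and region comparisons were known, so their levels and fold changes in those comparisons are given as a description. Counts of calls in those comparisons stand beside the share of all genes called, and nothing is read from them. The series measured RNA from 9 mouse embryos at E9, 5 labelled Control and 4 with Meis1 and Meis2 deleted conditionally by Delta1Cre (double knockout, DKO). Each embryo was dissected into a posterior piece, which held the axial bud with the latest somites to form, and an anterior piece, made of the remaining axis that bears somites. This gave 5 control and 4 DKO libraries for each region. Control embryos 1 to 5 had 23, 20, 24, 21 and 23 somites, and DKO embryos 1 to 4 had 22, 24, 20 and 23. The labels do not list the alleles that the controls carry, and Delta1Cre acts only in cells in which the Delta1 (Dll1) promoter has been active, so a DKO piece may hold cells with and without the deletion, in a proportion not measured here.

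The coelom is the body cavity that opens within the lateral plate mesoderm, and its lining gives rise to the mesothelium of the heart, lungs, gut and body wall. Cells of this lining can leave the sheet and become mesenchyme, as they do in the epicardium and in the ridges that form the gonads and kidneys. Meis proteins are homeodomain factors of the TALE class that bind DNA with Pbx and Hox partners, and they are known regulators of axial patterning and of heart and limb development. In the trunk of an embryo of this age the lining is a thin layer beside the somites, and the dissected pieces hold mostly other tissues.

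Promoter sequences show how unlike these genes are in the DNA in front of their start sites. RefSeq (GRCm38.p6) promoter entries were found for 4 of the 7 genes, Bnc1, Tcf21, Upk3b and Lrrn4. The 150 bases before the RefSeq start, 5′ to 3′ on the gene's strand with CG dinucleotides in capitals, are printed for Bnc1 (chr7:81992300-81992449, minus strand), Upk3b (chr5:136038346-136038495, plus strand) and Lrrn4 (chr2:132880863-132881012, minus strand), which were lower in every anterior DKO library than in any anterior control library.
Bnc1: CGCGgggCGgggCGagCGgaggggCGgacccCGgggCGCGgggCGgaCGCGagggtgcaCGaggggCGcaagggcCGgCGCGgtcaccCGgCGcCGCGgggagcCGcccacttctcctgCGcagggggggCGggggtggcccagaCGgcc
Upk3b: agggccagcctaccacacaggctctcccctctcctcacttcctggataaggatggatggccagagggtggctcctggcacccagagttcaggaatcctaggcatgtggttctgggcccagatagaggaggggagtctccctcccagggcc
Lrrn4: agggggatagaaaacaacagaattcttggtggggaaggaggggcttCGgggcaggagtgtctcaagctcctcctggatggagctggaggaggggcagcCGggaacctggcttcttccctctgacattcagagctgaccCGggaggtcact
The 250 bases before the start of Bnc1 held 39 CG dinucleotides and were 83.6% G and C, and 1.56% of 32851 promoters of the same length held at least as many. Those of Upk3b held 2 CG dinucleotides (60.8% G and C), and 29.0% of promoters held that number or fewer. Lrrn4 (59.2% G and C) and Tcf21 (52.4%) held 5 each, against a median of 6 over all promoters. The RefSeq start coincides with the GENCODE gene start for Upk3b and lies outside the GENCODE gene for Bnc1. For Lrrn4 it lies inside, so that the last 29 of the 150 bases printed belong to the GENCODE gene, and so do the last 31 before the Tcf21 start. The letters TGACAG (the core of Meis sites), TGATNNAT (Pbx-Hox) and GCGNGGGCG (Wt1 and Egr) were searched on both strands of the 250 bases. They occurred in 15.9%, 7.68% and 4.70% of all promoters, and in 0 of the 4 promoters here.

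Libraries held 12.7 to 38.2 megacounts of expected counts. Levels are in counts per megacount (CPM), scaled between libraries by TMM (trimmed mean of M values). A floor of 3 counts stood for 0.0798 to 0.231 CPM. The pieces carried the markers their labels imply. T and Tbx6, markers of the axial bud, averaged 95.6 and 32.7 CPM in posterior controls and 4.13 and 0.353 CPM in anterior controls, and the somite marker Meox1 was at 158 to 248 CPM in all control libraries. Both libraries of control embryo 1, labelled female, carried Y-linked RNA (151 and 164 CPM summed over Y-linked genes), as did the libraries labelled male. Meis1 transcripts were still counted in DKO libraries, at 90.3 to 111 CPM in anterior DKO against 113 to 134 in anterior controls, and at 46.5 to 72.5 CPM in posterior DKO against 59.8 to 99.7 in posterior controls. Meis2 was at 131 to 157 against 176 to 202 CPM anteriorly and at 90.3 to 117 against 118 to 160 CPM posteriorly. Gene counts do not show whether these reads cover the deleted exons.

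In the anterior piece, 4 of the 7 genes (Bnc1, Wt1, Upk3b and Lrrn4) were lower in all 4 DKO embryos than in any of the 5 controls, by 2.04-fold to 4.36-fold in the fit. Of all genes tested there, 2.47% were lower without overlap. In the posterior piece Wt1 alone of the 7 was lower in all 4 DKO embryos than in any control, by 3.58-fold, beside 2.32% of all genes tested. Upk1b and Msln were at or near the floor in most libraries. In pieces made of many tissues, fewer cells of the lining and less RNA per cell cannot be told apart. The 7 genes together made up 13.96 to 27.8 CPM in anterior controls, 3.57 to 9.21 CPM in anterior DKO, 32.6 to 40.7 CPM in posterior controls and 21.4 to 29.3 CPM in posterior DKO libraries.

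**Figure D1:**
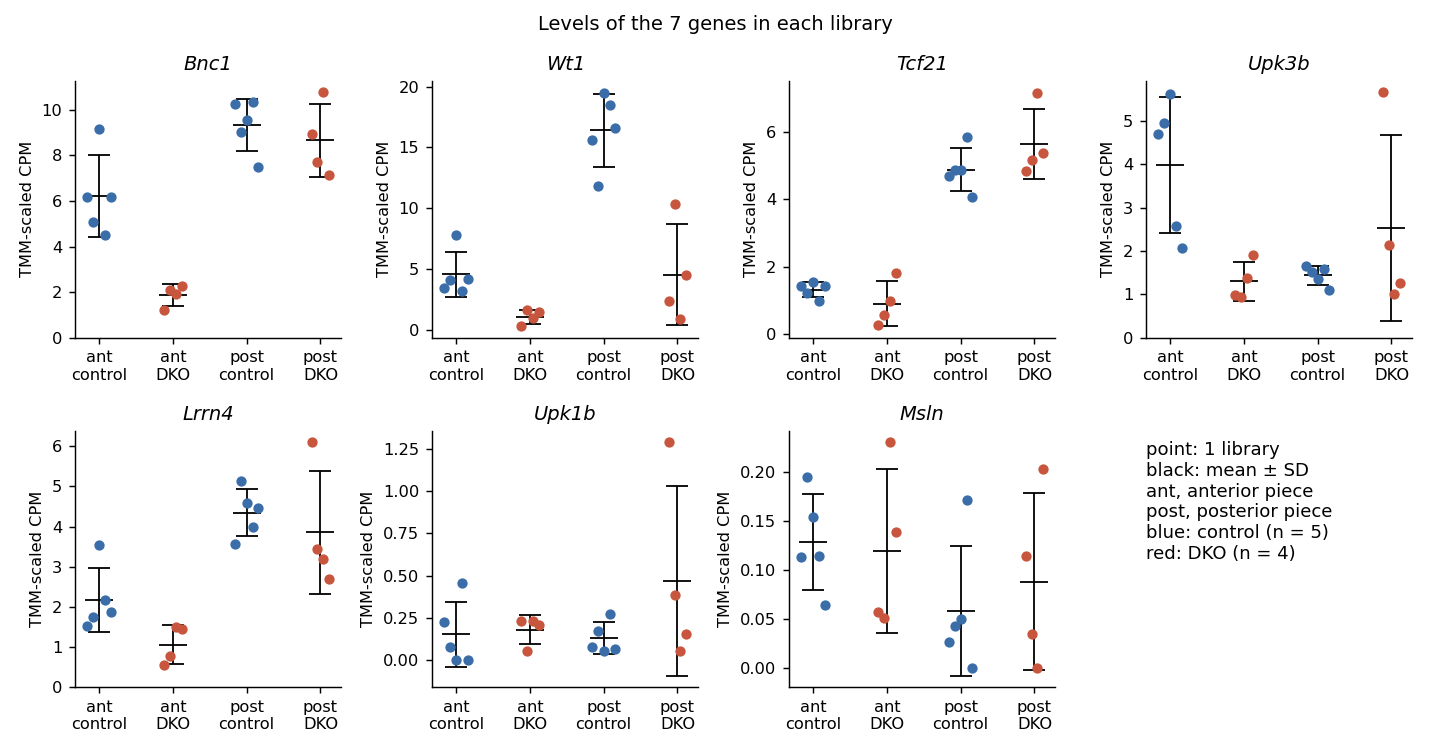
TMM-scaled CPM of each of the 7 genes (y axis, one panel per gene with its own scale) in the 4 groups (x axis). Each point is 1 library (blue control, n = 5; red DKO, n = 4) and black bars are mean ± SD; the 4 anterior DKO libraries lie below all 5 anterior controls for Bnc1, Wt1, Upk3b and Lrrn4, and Upk1b and Msln lie near 0 apart from posterior DKO 1, where Upk1b was at 1.29 CPM.

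Bnc1 encodes basonuclin 1, a zinc finger protein of mesothelium, keratinocytes and germ cells (ENSMUSG00000025105, chromosome 7 from 81966672 to 81992292, minus strand, GRCm38). Anterior controls 1 to 5 had 6.16, 5.06, 9.17, 4.52 and 6.18 CPM, and anterior DKO libraries 1 to 4 had 1.21, 2.11, 1.90 and 2.28 CPM. No control was below 4.52 CPM and no DKO library above 2.28 CPM. The log2 difference was −1.74 (SE 0.250), or 3.33-fold lower. Posterior controls had 10.2, 9.01, 9.57, 10.3 and 7.50 CPM of Bnc1, and posterior DKO libraries 8.95, 7.73, 10.8 and 7.15 CPM, with groups that overlapped (−0.11, SE 0.141, and −0.23 to −0.04 when 1 embryo was left out). Bnc1 shares 98 exon bases with the pseudogene 4833418N17Rik, which had at most 1.06 counts in any library.

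Wt1 encodes the Wilms tumour zinc finger protein, which is made in the epicardium, the urogenital ridge and other parts of the coelomic lining (ENSMUSG00000016458, chromosome 2 from 105126529 to 105173616, plus strand). Anterior controls 1 to 5 held 3.45, 4.09, 7.78, 3.15 and 4.19 CPM, and anterior DKO libraries 0.288, 1.60, 0.919 and 1.42 CPM. Posterior controls held 15.6, 11.8, 19.5, 18.5 and 16.6 CPM, and posterior DKO 2.35, 10.3, 0.850 and 4.52 CPM. The groups did not overlap in either region, and the spread in posterior DKO was wide: DKO 2 was close to the lowest control, while DKO 1 and DKO 3 were below every anterior control. The log2 differences were −2.12 (SE 0.436) anteriorly and −1.84 (SE 0.489) posteriorly. Without DKO embryo 2 the posterior difference was −2.66 (SE 0.399), and without DKO embryo 3 it was −1.51.

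Among the DKO libraries, Wt1 and Meis1 stood in the same order in both regions. This order was noticed after the values were seen, and it is given with no test. Anterior Meis1 was at 90.3 CPM in DKO 1, 97.9 in DKO 3, 108 in DKO 4 and 111 in DKO 2, and Wt1 in these libraries was at 0.288, 0.919, 1.42 and 1.60 CPM. Posterior Meis1 was at 46.5 CPM in DKO 3, 49.3 in DKO 1, 61.7 in DKO 4 and 72.5 in DKO 2, with Wt1 at 0.850, 2.35, 4.52 and 10.3 CPM. Bnc1, Tcf21, Upk3b and Lrrn4 kept the order of Wt1 in neither region. Posterior Bnc1 was at 10.8 CPM in DKO 3, 8.95 in DKO 1, 7.15 in DKO 4 and 7.73 in DKO 2. Meis2, the other deleted gene, kept this order anteriorly (131, 138, 146 and 157 CPM) but not posteriorly, where it was at 92.8 CPM in DKO 3, 97.7 in DKO 1, 90.3 in DKO 4 and 117 in DKO 2. The summed level of 8 somite markers stood in the same orders as Wt1, at 268, 323, 330 and 351 CPM anteriorly and 219, 292, 347 and 404 CPM posteriorly. The anterior order had somite numbers of 22, 20, 23 and 24, which is not the order of stage. The posterior order is also that of somite number (20, 22, 23 and 24) and of the summed level of 5 nephric duct markers (50.03, 51.5, 58.7 and 71.5 CPM). Meis1 level, stage and tissue make-up therefore cannot be told apart in these 4 libraries. In posterior controls, embryo 2, with 20 somites, was lowest in both Meis1 (59.8 CPM) and Wt1 (11.8 CPM), but the controls did not otherwise keep one order. Posterior control 1 was above controls 4 and 5 in Meis1 (93.4 CPM) and below them in Wt1 (15.6 CPM), and anterior control 2 was lowest in Meis1 (113 CPM) with Wt1 (4.09 CPM) above controls 1 and 4. The Wt1 level of posterior control 2 stood above that of posterior DKO 2, whose Meis1 level was higher.

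**Figure D2:**
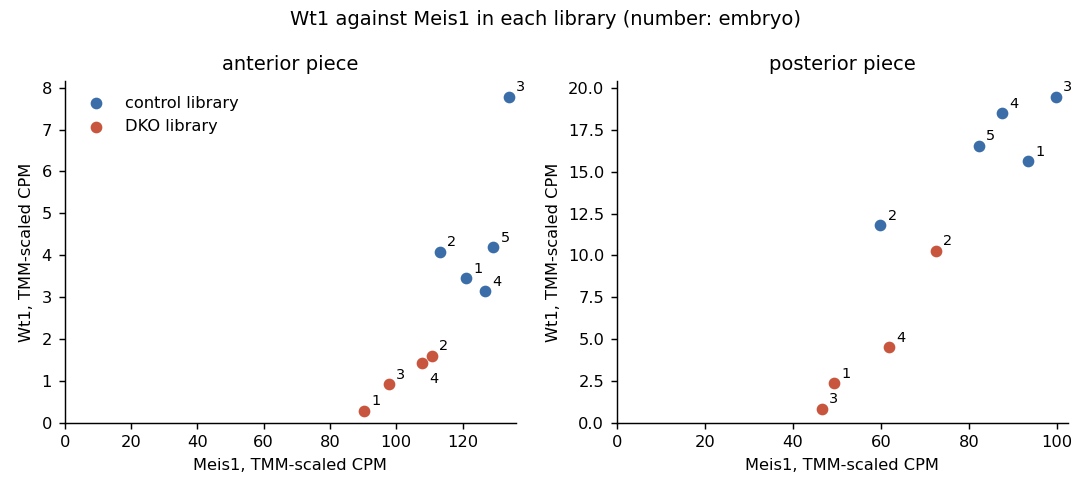
Wt1 (y axis) against Meis1 (x axis), both in TMM-scaled CPM, in the anterior (left) and posterior (right) libraries. Each point is 1 library, numbered by embryo, blue for control and red for DKO; the 4 DKO libraries stand in the same order on both axes in each region, and posterior control 2, at 59.8 CPM of Meis1, lies among the DKO libraries on the x axis.

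Tcf21 encodes a basic helix-loop-helix factor of epicardial, lung, kidney and gonadal mesenchyme (ENSMUSG00000045680, chromosome 10 from 22817281 to 22820174, minus strand). The anterior controls had 1.41, 1.21, 1.54, 0.972 and 1.42 CPM, and the anterior DKO libraries 0.259, 0.567, 0.977 and 1.80 CPM. The DKO libraries spanned the controls: DKO 1 and 2 were below all of them and DKO 4 above all of them. The log2 difference was −0.54 (SE 0.451), and it was −1.19 without DKO embryo 4 and −0.20 without DKO embryo 1. Posterior Tcf21 was at 4.71, 4.87, 4.89, 5.85 and 4.07 CPM in controls and at 4.85, 5.16, 7.17 and 5.38 CPM in DKO, overlapping groups with a log2 difference of 0.21 (SE 0.155), or 0.07 without DKO embryo 3. An antisense gene, Gm10824, overlaps Tcf21 but shares none of its exon bases.

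Upk3b encodes uroplakin 3b, a membrane protein of the mesothelial surface (ENSMUSG00000042985, chromosome 5 from 136038496 to 136046487, plus strand). Its levels were 4.69, 4.94, 5.63, 2.57 and 2.06 CPM in anterior controls and 0.978, 0.928, 1.38 and 1.90 CPM in anterior DKO libraries. The gap between the lowest control and the highest DKO library was narrow, and the log2 difference was −1.62 (SE 0.339), or 3.06-fold lower. Posterior controls were at 1.65, 1.51, 1.36, 1.57 and 1.099 CPM, and posterior DKO at 5.65, 2.14, 1.01 and 1.27 CPM. The posterior log2 difference of 0.81 (SE 0.432) rested on DKO 1, and without that embryo it was 0.04. Upk1b, a tetraspanin of the same uroplakin family (ENSMUSG00000049436, chromosome 16 from 38773184 to 38800328, minus strand), had 0 to 8 counts in all but 2 libraries. The exceptions were posterior DKO 1 with 34 counts (1.29 CPM) and posterior DKO 2 with 11 counts (0.386 CPM), the 2 posterior DKO libraries that were also highest in Upk3b.

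Lrrn4 encodes a membrane protein with leucine-rich repeats that marks mesothelial cells (ENSMUSG00000043110, chromosome 2 from 132868305 to 132880891, minus strand). Its levels were 1.53, 1.75, 3.55, 2.17 and 1.87 CPM in anterior controls and 0.546, 0.773, 1.49 and 1.45 CPM in anterior DKO libraries. The highest DKO library lay just below the lowest control, and the log2 difference was −1.03 (SE 0.355). Posterior Lrrn4 was at 3.56, 5.13, 4.58, 4.001 and 4.46 CPM in controls and at 6.11, 3.44, 3.19 and 2.69 CPM in DKO (−0.16, SE 0.230). DKO 1 was above all posterior controls and the 3 other DKO libraries below all of them, and without DKO 1 the difference was −0.48. Msln, whose product mesothelin is a surface protein of mature mesothelium (ENSMUSG00000063011, chromosome 17 from 25748613 to 25754378, minus strand), had 0 to 5 counts in every library, and a difference between groups was not detectable at this depth.

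Levels were compared between genes per kilobase of exon. In anterior controls the order was Bnc1 (1.34 ± 0.387 CPM per kilobase, SD, n = 5), Upk3b (1.13 ± 0.443), Wt1 (0.731 ± 0.302), Lrrn4 (0.585 ± 0.216), Tcf21 (0.558 ± 0.0953), Upk1b (0.0729 ± 0.0929) and Msln (0.0418 ± 0.0160). The ranges of mean ± SD of neighbours in this order overlapped except at the step from Tcf21 to Upk1b. In anterior DKO libraries Bnc1 (0.404 ± 0.102, n = 4), Tcf21 (0.383 ± 0.284), Upk3b (0.367 ± 0.128) and Lrrn4 (0.287 ± 0.129) led with overlapping ranges, Wt1 (0.170 ± 0.0948) came next, and the ranges of mean ± SD overlapped for all neighbours. In posterior controls Wt1 led (2.65 ± 0.482), followed, with overlapping ranges, by Tcf21 (2.08 ± 0.271) and Bnc1 (2.01 ± 0.248), with Lrrn4 (1.17 ± 0.160) and Upk3b (0.407 ± 0.0615) each apart from its neighbours. In posterior DKO libraries Wt1, at 0.727 ± 0.669, came after Tcf21 (2.40 ± 0.443), Bnc1 (1.86 ± 0.345) and Lrrn4 (1.04 ± 0.412).

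Of the 7 genes, 5 passed the filter on low counts in every comparison, and Upk1b and Msln passed it in none. By edgeR's quasi-likelihood test, with p-values adjusted over all genes and a threshold of 0.05, 0 of the 5 were called in the anterior DKO comparison, in which 0.0394% of 15238 genes were called. An unadjusted p below 0.05 was found for 4 of the 5 and for 13% of all genes, and DESeq2 called 3 of them (296 of all genes) and limma-voom 1 (29 of all genes). The 4 genes that were lower without overlap stand beside a background of 2.47% of all genes tested. The median log2 difference of the 5 was −1.62, against 0.00 over all genes. In the posterior DKO comparison 0 of 5 were called (background 0.0126% of 15936 genes), 1 of 5 had an unadjusted p below 0.05 (11% of all genes), DESeq2 and limma-voom called 0 each (161 and 3 of all genes), and the 1 gene lower without overlap stands beside a background of 2.32%. The posterior median of the 5 was −0.11, against 0.01 over all genes. Since these contrasts were known when the genes were chosen, nothing is read from these counts.

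**Figure D3:**
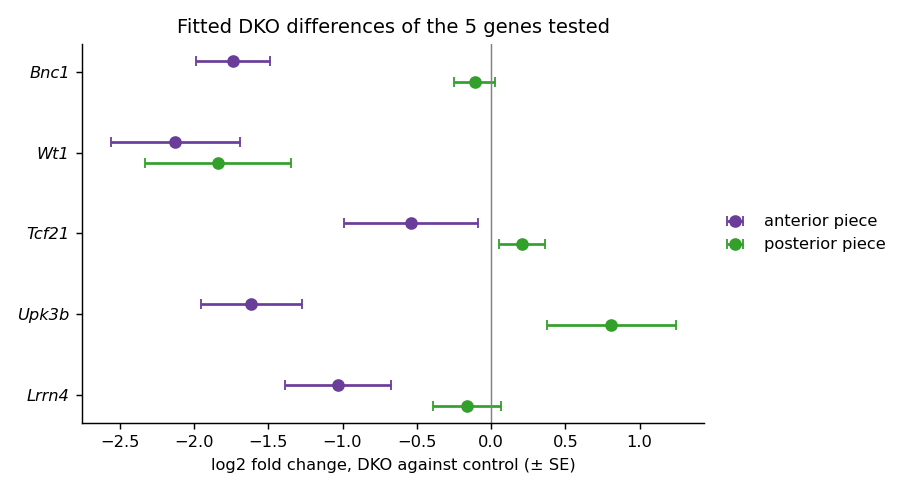
Fitted log2 fold change, DKO against control (x axis), of the 5 genes that passed the filter on low counts (y axis), in anterior (purple) and posterior (green) libraries, with bars of ± 1 SE. Bnc1, Upk3b and Lrrn4 lie at −1.74, −1.62 and −1.03 anteriorly and near or above 0 posteriorly, while Wt1 lies at −2.12 and −1.84.

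The ratio of the posterior to the anterior level within an embryo was taken for each gene. In controls Bnc1 was 1.04 to 2.29 times as high in the posterior as in the anterior piece of the same embryo, and in DKO embryos 3.13 to 7.41 times. Upk3b was lower in the posterior piece of all 5 controls, at 0.242 to 0.611 of the anterior level, and at 0.666 to 5.78 of it in DKO embryos, below 1 in DKO 3 and 4 and above 1 in DKO 1 and 2. For both genes the DKO ratios lay above all control ratios, as they did for 0.844% of 15649 genes with a count in every library. These ratios come from the values known when the genes were chosen, and nothing is read from that count. Wt1 ratios were 2.50 to 5.88 in controls and 0.924 to 8.17 in DKO embryos, Tcf21 ratios 2.87 to 6.01 and 2.99 to 18.8, and Lrrn4 ratios 1.29 to 2.93 and 1.85 to 11.2, all of which overlapped.

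**Figure D4:**
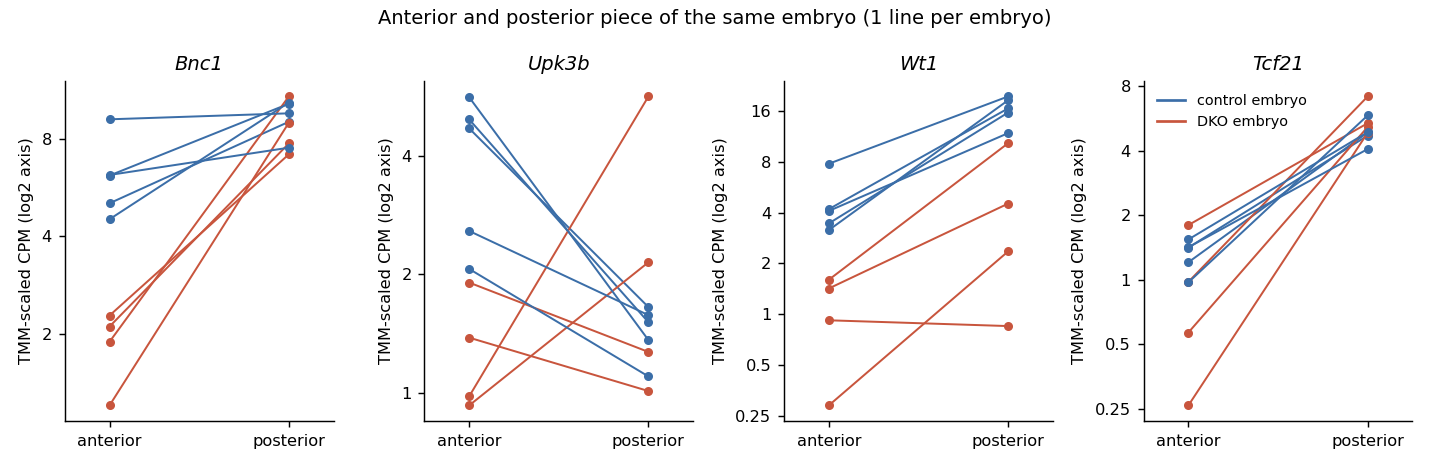
TMM-scaled CPM (y axis, log2 scale) of Bnc1, Upk3b, Wt1 and Tcf21 in the anterior and posterior piece of each embryo (x axis), joined by 1 line per embryo, blue for 5 controls and red for 4 DKO. Bnc1 lines of DKO embryos start at 1.21 to 2.28 CPM and end at 7.15 to 10.8 CPM, where the controls end at 7.50 to 10.3 CPM, and all 5 control lines of Upk3b slope down, while those of DKO 1 and DKO 2 end at 5.65 and 2.14 CPM.

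In the fit over controls, which had no term for the embryo, edgeR called all 5 genes between regions. The region contrasts were known when the genes were chosen, so nothing is read from these calls or from those in DKO embryos. Higher in the posterior piece were Bnc1 (log2 0.59, SE 0.176), Wt1 (1.87, SE 0.228), Tcf21 (1.90, SE 0.169) and Lrrn4 (1.01, SE 0.223), beside a background of 12.1% of 15294 genes called higher. Upk3b was lower (−1.46, SE 0.273), beside 13.3% called lower. The call of Bnc1 was lost when control embryo 1, 2 or 4 was left out, with log2 values of 0.56, 0.54 and 0.46. In DKO embryos Bnc1 (2.22, SE 0.222), Tcf21 (2.65, SE 0.453) and Lrrn4 (1.88, SE 0.373) were called higher in the posterior piece (background 8.76% of 15777 genes). Wt1 (2.13, SE 0.706) and Upk3b (0.97, SE 0.514) were not called. With the embryo as a block the Wt1 value was 1.95 (SE 0.426) and was called. Without DKO embryo 1 the Upk3b value was 0.08. The difference between the DKO effects of the regions (posterior minus anterior, log2) was 1.63 (SE 0.288) for Bnc1, 2.43 (SE 0.591) for Upk3b, 0.87 (SE 0.433) for Lrrn4, 0.74 (SE 0.468) for Tcf21 and 0.29 (SE 0.708) for Wt1, which was −0.27 without DKO embryo 2. Without DKO embryo 1 the values of Upk3b, Lrrn4 and Tcf21 were 1.53, 0.31 and 0.47, and without DKO embryo 4 that of Tcf21 was 1.43. By edgeR 0 of the 5 were called for this difference and 0% of 16428 genes were, with 567 genes (3.45%) and 2 of the 5 at an unadjusted p below 0.05. DESeq2 called 10 genes, Bnc1 among them, and limma-voom 0. The region and interaction values share libraries with the DKO comparisons.

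No record ties the choice of the genes to somite number, so its slope was tested, on the same libraries. In a model with genotype, 0 of the 5 genes were called in either region by edgeR, beside a background of 0.0328% of genes anteriorly and 0.0126% posteriorly, and DESeq2 and limma-voom also called 0 of the 5. Bnc1 had a log2 slope of 0.16 per somite (SE 0.0680, edgeR adjusted p = 0.374) in the anterior piece, where it was the 1 gene of the 5 with an unadjusted p below 0.05, beside 12.9% of all genes. Its posterior slope had the other sign, at −0.07 (SE 0.0443). In the posterior piece Wt1 was the 1 gene with an unadjusted edgeR p below 0.05, beside 6.42% of all genes, with a slope of 0.38 per somite (SE 0.126, edgeR adjusted p = 0.525). The anterior slope of Wt1 was 0.22 (SE 0.122, edgeR adjusted p = 0.49). Slopes of Tcf21 were 0.09 (SE 0.156) anteriorly and −0.08 (SE 0.0478) posteriorly. Those of Upk3b (0.02 and 0.00) and Lrrn4 (0.03 and −0.04) were smaller than their SEs, and the lowest edgeR adjusted p among these 3 genes was 0.876. Without control embryo 3 the anterior slopes of Bnc1 and Wt1 were 0.10 and 0.13. Leaving out 1 embryo turned the sign of the anterior slopes of Tcf21, Upk3b and Lrrn4 and of the posterior slope of Upk3b. The range of 20 to 24 somites in 9 embryos limits what these slopes can show.

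Markers of other tissues in the pieces were summed beside these values. The summed level of 8 somite markers was 372 to 438 CPM in anterior controls and 268 to 351 CPM in anterior DKO, with none of them at or under 3 counts in every library of a group. The sum of 8 gut endoderm markers was 94.2 to 108 against 111 to 127 CPM, and that of 14 epicardial genes 199 to 264 against 117 to 160 CPM. Sums of the 18 genes of the mesothelium and serosal lining list overlapped anteriorly, at 267 to 411 against 327 to 385 CPM. Posteriorly they were 447 to 594 CPM in controls and 596 to 637 CPM in DKO, higher in DKO without overlap. Of the 13 epicardial genes tested, 11 had lower and 2 higher values in anterior DKO. Aldh1a2, the most abundant, averaged 134 CPM in anterior controls and 69.0 CPM in anterior DKO. Endothelial markers overlapped (356 to 406 against 319 to 401 CPM), and heart muscle markers were low in both (16.2 to 30.7 against 18.9 to 38.1 CPM). In the posterior piece, nephric duct markers summed to 80.8 to 99.5 CPM in controls and 50.03 to 71.5 CPM in DKO, without overlap, and somite markers to 399 to 516 and 219 to 404 CPM. The 5 nephric duct markers, none of them called by edgeR, all had lower posterior values in DKO (median log2 −1.09). The 8 primitive erythroid markers had a median log2 DKO difference of −0.70 anteriorly and 0.52 posteriorly, and all 8 were higher in the interaction (median 1.19, 7 of 8 at an unadjusted edgeR p below 0.05 beside 3.45% of all genes, 0 called). Their sums overlapped between genotypes, at 1049 to 5089 against 1319 to 2245 CPM anteriorly and 1467 to 2467 against 1787 to 3735 CPM posteriorly. Whether these differences have a part in the levels of the lining genes, Wt1 among them, was not tested. Posterior DKO 1, the highest library for Upk3b, Upk1b and Lrrn4 in the posterior piece, was also highest in 8 markers of liver bud and yolk sac endoderm, at 38.8 CPM. The 3 other posterior DKO libraries had 6.21 to 21.7 CPM and the posterior controls 5.16 to 12.2 CPM. The defining markers Afp and Ttr were above 0 in all posterior libraries, Afp at 0.755 to 5.43 CPM in controls and 1.27 to 18.9 CPM in DKO, and Ttr at 0.133 to 0.819 and 0.406 to 2.39 CPM. Apoa4 and Alb were at no more than 0.151 CPM in either group. The part of this tissue in the 3 genes' levels was not tested.

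Related genes were read from 8 lists of 97 genes, which do not include the 7. Between genotypes edgeR called 0 of them in either region. In the anterior piece 21 of 72 tested had an unadjusted p below 0.05 (13% of all genes did), DESeq2 called 8 (296 of all genes) and limma-voom 1 (29 of all genes), and the median log2 difference was −0.09. In the posterior piece 24 of 74 had such a p (11% of all genes did), DESeq2 called 12 (161 of all genes) and limma-voom 0 (3 of all genes), and the median was −0.16. The list medians differed: anteriorly lateral plate and splanchnic mesoderm stood at −0.71 (15 tested), epicardium and proepicardium at −0.44 (13 tested), and mesothelium and serosal lining at 0.11 (12 tested). Posteriorly intermediate mesoderm stood at −0.48 (10 tested), epicardium at −0.46 (13) and mesothelium and serosal lining at 0.28 (12). Genes reported as targets of Wt1 had medians of −0.06 and 0.05 (8 tested in each region).

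Single genes of these lists are given with values, since none passed the threshold between genotypes by edgeR. Those named in this paragraph were picked after their values were seen. Pdgfra, a growth factor receptor of mesenchyme, averaged 124 ± 23.1 CPM (SD, n = 5) in anterior controls and 69.5 ± 11.5 CPM (n = 4) in anterior DKO (log2 −0.85, SE 0.142, edgeR adjusted p = 0.0522). Aldh1a2, which makes retinoic acid and stands in the epicardium list, averaged 134 ± 31.5 and 69.0 ± 12.7 CPM (−0.97, SE 0.170, edgeR adjusted p = 0.0641). The tissue that its RNA came from was not tested. Posteriorly Gata5 and Gata6, zinc finger factors of epicardium and splanchnic mesoderm, had log2 differences of −1.94 (SE 0.396) and −0.65 (SE 0.135), both at an edgeR adjusted p of 0.196. Posterior Krt8, a keratin of simple epithelia, averaged 83.9 ± 15.5 CPM in controls and 130 ± 19.4 CPM in DKO (0.63, SE 0.135, edgeR adjusted p = 0.197), and Rspo1, a secreted Wnt agonist, 8.20 ± 1.02 and 4.915 ± 1.07 CPM (−0.73, SE 0.165, edgeR adjusted p = 0.217).

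Between regions of the controls, 52 of the 72 list genes tested were called, 38 higher and 14 lower in the posterior piece, beside 25.4% of all genes called (12.1% higher, 13.3% lower). The median was 0.44, against −0.01 over all genes, and 43 of 71 were called in DKO embryos (29 higher, 14 lower), beside 18.5% of all genes. The counts of single lists that follow stand beside the same shares for controls. All 10 intermediate mesoderm genes, which precede the kidney, were higher, led by Pax2 (log2 2.38), Osr1 (2.32) and Pax8 (2.23). Of the lateral plate list 9 of 15 were higher and 3 lower. Hand2 (2.85), Nkx2-3 (1.78) and Bmp4 (1.60) had the largest changes toward the posterior piece, and Irx3 (−0.49) was lower there. Of the mesothelium list 6 of 12 were higher, among them the desmosome gene Dsp (1.98) and the keratins Krt19 (1.36) and Krt8 (1.02), and 3 lower, among them Efemp1 (−1.58) and Pdpn (−0.70). Of the epicardium list 3 of 13 were higher (Hand2, Gata5 at 1.55 and Gata6 at 1.14) and 5 lower, among them Itga4 (−1.46), Sema3d (−1.005) and Tgfbi (−0.75). The gonad and adrenal list had 4 of 8 higher and 0 lower, led by Osr1, Emx2 (1.62) and Six4 (0.50).

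The other lists gave mixed directions between regions of the controls. Of the pleural, spleen and septum list, 4 of 6 tested were called, among them Hlx (0.73) and Pdgfra (0.37), which were higher, and Ngfr (−0.73), which was lower. Of 8 reported Wt1 targets tested, 5 were higher, led by Bmper (1.75), Sulf1 (1.503) and Spry1 (1.21), and Itga4 was lower. Among genes of the same families as the 7, Upk1a (1.04), Tcf15 (1.02) and Lrrn3 (0.66) were higher and Lrrn1 (−1.49) was lower, 4 of 9 tested. All calls in these 2 paragraphs are edgeR calls with p-values adjusted over the 15294 genes tested.

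The lining genes were also compared from embryo to embryo within each region. After the mean of each group was removed, the 9 anterior libraries gave Pearson correlations of log2 CPM of 0.900 for Bnc1 and Wt1, 0.711 for Bnc1 and Tcf21 and 0.740 for Tcf21 and Lrrn4. The other anterior pairs lay between 0.386 (Wt1 and Upk3b) and 0.693 (Wt1 and Tcf21). In the 9 posterior libraries Bnc1 and Wt1 had −0.626, Bnc1 and Tcf21 0.749, and Upk3b and Lrrn4 0.791. The other posterior pairs were weaker or negative, between −0.496 (Wt1 and Tcf21) and 0.175 (Wt1 and Upk3b). The posterior correlations include DKO 1, the library high in Upk3b and Lrrn4. These are descriptions over libraries that share dissection and depth, and no difference between the regions was tested.

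Among 11812 protein-coding genes, likeness was ranked by correlation with the mean standardised log2 CPM of the 5 genes over the 18 libraries, which share region and genotype. The 5 did not share one pattern over these libraries. Upk3b had correlations of 0.269 with Bnc1, 0.129 with Wt1, −0.044 with Tcf21 and 0.22 with Lrrn4, and the other pairs 0.622 to 0.887. The genes most like the mean of the 5 were Pdgfra (r = 0.913), Svep1 (0.907), Smoc2 (0.904), Peg3 (0.884), Gata6 (0.881), Ptprk (0.878), Epb41l3 (0.871) and Adamts9 (0.870). Svep1, an extracellular matrix gene, averaged 11.2 ± 2.08 CPM in anterior controls, 6.62 ± 1.69 in anterior DKO, 16.1 ± 1.71 in posterior controls and 13.9 ± 3.34 in posterior DKO libraries. With group means removed the genes most like the mean of the 5 included Prickle3 (0.822), Tnc (0.784), Zim1 (0.773), Peg3 (0.771), Gata6 (0.761), Epas1 (0.732) and Rasgrp3 (0.732). Peg3 and Gata6 were in both sets. Tnc, which encodes the matrix protein tenascin C, averaged 9.37 ± 6.52 CPM in anterior controls and 2.19 ± 0.948 CPM in anterior DKO.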

How the data were processed

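RNA was measured in 18 libraries from 9 embryos. Per the labels, poly(A) RNA was made into NEBNext libraries and read from a single end at 61 bp. The deposited values are expected counts per Ensembl gene from RSEM on GRCm38, which are unscaled estimates of reads per gene; CASAVA and cutadapt are also named, without versions, in the submitters' processing notes. The aligner and the use of strand are not given in the sources used here, so antisense partners could share reads. Of 53465 identifiers, 53360 matched GENCODE M21, which gave symbols and exon lengths.

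Expected counts were rounded and fitted with edgeR 4.0.16 under R 4.3.3 (filterByExpr, minimum count 10 and minimum total 15; TMM scaling; quasi-likelihood test; Benjamini-Hochberg adjustment over all genes tested; threshold 0.05). The SE of a log2 fold change is its absolute value over the root of the F statistic. CPM values are TMM-scaled, and log2 CPM for correlations used a prior count of 2. Comparisons were fitted in the 9 anterior, 9 posterior, 10 control or 8 DKO libraries, the interaction in all 18, and the slope on somite number with genotype as a term. The main region and interaction fits had no term for the embryo, so they treat paired pieces as independent libraries. Alternatives were other size factors, DESeq2 1.42.0, limma-voom (limma 3.58.1), other filters, covariates, a joint fit, the embryo as a block and leaving out each embryo. The code was tested on simulated data.

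Pieces were paired by genotype, sex label and somite number. Control embryos 1 and 5 share a somite number and are told apart by the sex label alone, which the Y-linked RNA of control 1 contradicts, so these pairings are the least certain. With group means removed, pieces of the same embryo correlated at 0.256 to 0.568 over genes (9 pairs), and pieces of different embryos at −0.282 to 0.0902 (32 pairs). The genes and lists were chosen with earlier results of these data known. All 7 genes were named. From each list the text was to name genes called between genotypes and, between regions of the controls, the 3 with the largest change in each direction with a mean of at least 50 counts. By edgeR 0 list genes were called between genotypes. The list genes given singly for that comparison were picked after their values were seen. The 8 most correlated genes were also to be named. Some genes that these rules select are not reported here. The floor of 3 counts covers counting error only, since molecules were not tagged before amplification.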

Additional observations from a re-analysis of the deposited data

Results flagged for a closer look

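A sample far from the rest of its group was looked for in 28 groups (7 genes in 4 groups), with a rule that flags about 1 in 20 by chance, and 2 were found. Wt1 in anterior control 3 was at 7.78 CPM, with the nearest control at 4.19 CPM, a gap of 0.776 of the group's range. This library was also the highest anterior control in Bnc1 (9.17 CPM), Tcf21 (1.54 CPM), Upk3b (5.63 CPM) and Lrrn4 (3.55 CPM), had the lowest total count of all libraries (12.7 megacounts) and came from an embryo with 24 somites. Without this embryo the anterior DKO difference of each of the 5 genes kept its sign.

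Upk1b in anterior DKO 2 was at 0.0515 CPM, with the nearest DKO library at 0.208 CPM, a gap of 0.874 of the range. This value is 1 count, below the floor of 3 counts.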

How the results depend on the processing

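Signs of the DKO differences of the 5 genes were the same in every alternative in both regions. Counts of calls moved. In the anterior DKO comparison edgeR called 0 of the 5 genes; upper-quartile factors called 1, limma-voom 1, a mean of at least 50 counts 1, all 18 libraries in one fit 1, sex label and somite number as covariates 2, DESeq2 3 and no filter on low counts 3. List genes called there were 0 in the main analysis, 8 with DESeq2, 1 with limma-voom, 2 with no filter, 4 with covariates and 2 in the joint fit. In the posterior DKO comparison list genes called were 12 with DESeq2, 1 with no filter and 1 in the joint fit. For the interaction DESeq2 called 1 of the 5. Leaving out 1 embryo gave 0 to 1 of the 5 genes and 0 to 2 list genes anteriorly, and 0 to 1 of each posteriorly. The calls made came without DKO embryo 2 (anterior Bnc1, adjusted p = 0.0390; posterior Wt1, adjusted p = 0.0440, all from edgeR). Over alternatives adjusted p ranged from 5.00e-08 to 0.186 for anterior Bnc1 and from 0.0440 to 0.534 for posterior Wt1. The cause was not tested. With the embryo as a replicate block, 5 of the 5 genes were called between regions in controls, 4 in DKO (Wt1 added, adjusted p = 0.0130, range over alternatives 0.00898 to 0.183) and 0 for the interaction; it changed no other call of the 5.

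Genes called overall were 6 anteriorly (296 with DESeq2, 29 with limma-voom, 83 with no filter, 88 with covariates, 19 in the joint fit, 1 to 57 leaving out 1 embryo) and 2 posteriorly (161 with DESeq2, 14 with no filter, 51 in the joint fit, 1 with a mean of 50 counts, 24 without DKO embryo 2). Slopes on somite number gave 5 genes anteriorly (352 with DESeq2, 162 with no filter) and 2 posteriorly (141 and 29). Levels near 3 counts, as for Upk1b and Msln, limit what depth can show.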
